A study of Mus musculus with 14 samples.

Results

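The peaks described here are the 3437 of 74458 H3K27me3 peaks that lie on chromosome 6 but over 10 Mb from the Hoxa cluster, chosen by position alone as those ending before 42163046 or starting after 62274461 (mm10). Of these, 869 lie between the centromere and Hoxa and 2568 on the telomeric side, and the question was where along the chromosome, and at which kinds of gene, cells lacking the Hoxa loop anchor differed from cells lacking another one. The cells were mouse embryonic stem cells (mESCs) of the hybrid G4 line, grown with the cytokine LIF on CD1 feeder cells. Each library came from cells with a Cas9-made deletion, homozygous per the study's methods, of a Polycomb loop anchor at Hoxa (3 libraries), Wnt6 (2 libraries) or Hmx1 (2 libraries). No column of the table held unedited cells, so each comparison is between cells that all carry a deletion. The labels name no clone, so that a difference between deletions cannot be told apart from a difference between clones. Nothing in the labels says that replicates came from separate cultures, and the p-values then measure only the spread between these libraries.

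H3K27me3 is the trimethylation of lysine 27 on histone H3, written by Polycomb repressive complex 2 over silent genes. In embryonic stem cells it is densest over CG-rich starts of developmental regulators such as the Hox genes, and such regions can meet in the nucleus as Polycomb loops, some over very long distances along a chromosome. Broad, low H3K27me3 between genes is usual as well. In Cut&Tag an antibody on chromatin holds the transposase Tn5 next to the mark, where it inserts adapters, and the counts over a peak measure how much tagged DNA was recovered there. In such bulk libraries, fewer cells or alleles with the mark and less of the mark per cell cannot be told apart.

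The files summed to between 6016500 and 36563541 counts per library, and the median count of a chromosome 6 peak in this set was 21 in the shallowest library and 136 in the deepest. Levels are given as CPM, that is counts scaled to the library total and by TMM factors. Across the deleted Hoxa stretch the 3 Hoxa deletion libraries kept 0.0931%, 0.161% and 0.151% of the level of the others, as their labels state. Marker levels were summed by list. For fibroblast genes, a check for feeder cells, the Hoxa deletion had 1203 to 1260 CPM (0 of 39 peaks called). This lay between 1184 and 1319 CPM in the Wnt6 deletion but below 1298 and 1344 CPM in the Hmx1 deletion. For Polycomb-silenced developmental genes it had 3917 to 4185 CPM, above 3854 and 3523 CPM in the Wnt6 deletion. The Hmx1 deletion, with 3927 and 4083 CPM, lay within that range. Of the 74 peaks, 4 were called against the Wnt6 deletion (beside 1.23% of all peaks) and 1 against each (beside 0.647%). Sums for pluripotency genes were 343 to 362 CPM in the Hoxa deletion and 304 to 336 CPM in the others, with 0 of 34 peaks called. The part of such differences in the results below was not tested. Chromosome 8 stood apart: its median log2 fold change in the Hoxa deletion was -0.58 against both other deletions, so that counts on chromosome 6 are also given from a fit without it.

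Starts of genes that carried a called peak are shown first, because they differ in the CG content for which Polycomb-marked promoters are known. Each sequence is the RefSeq promoter window (GRCm38.p6) from 250 bases before to 50 bases after the start, read 5′ to 3′ on the gene's strand, with every CG in capitals. Mest is shown at a start inside its highest peak (chr6:30733256-30733555, plus strand) and at the next start downstream (chr6:30737800-30738099, plus strand). The others are Trh (chr6:92244601-92244900, minus strand), BB283400 (chr6:30176373-30176672, plus strand) and Bcat1 (chr6:145076108-145076407, minus strand).
Mest, first start: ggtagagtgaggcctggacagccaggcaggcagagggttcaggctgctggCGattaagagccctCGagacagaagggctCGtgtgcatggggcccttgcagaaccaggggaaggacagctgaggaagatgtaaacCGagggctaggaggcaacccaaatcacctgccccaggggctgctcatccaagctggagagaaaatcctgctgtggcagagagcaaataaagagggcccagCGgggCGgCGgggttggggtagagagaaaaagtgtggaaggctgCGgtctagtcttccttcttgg
Mest, next start: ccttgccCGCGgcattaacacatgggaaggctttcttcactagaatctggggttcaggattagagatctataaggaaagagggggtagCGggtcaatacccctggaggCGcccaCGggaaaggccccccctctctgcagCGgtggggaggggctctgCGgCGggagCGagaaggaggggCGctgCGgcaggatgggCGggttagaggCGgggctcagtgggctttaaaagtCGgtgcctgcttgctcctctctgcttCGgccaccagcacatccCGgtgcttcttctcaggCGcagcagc
Trh: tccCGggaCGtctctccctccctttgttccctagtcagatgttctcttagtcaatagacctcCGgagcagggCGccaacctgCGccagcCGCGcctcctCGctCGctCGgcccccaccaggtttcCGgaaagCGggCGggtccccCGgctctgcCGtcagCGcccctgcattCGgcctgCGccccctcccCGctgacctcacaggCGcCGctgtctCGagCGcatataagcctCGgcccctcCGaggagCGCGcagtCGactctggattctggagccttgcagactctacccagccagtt
BB283400: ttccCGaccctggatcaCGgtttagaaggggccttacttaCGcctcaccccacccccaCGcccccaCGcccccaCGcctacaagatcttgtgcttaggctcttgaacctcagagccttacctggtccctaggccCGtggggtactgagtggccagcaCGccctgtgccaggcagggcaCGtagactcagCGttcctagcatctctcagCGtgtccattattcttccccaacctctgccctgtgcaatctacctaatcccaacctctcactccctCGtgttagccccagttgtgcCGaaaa
Bcat1: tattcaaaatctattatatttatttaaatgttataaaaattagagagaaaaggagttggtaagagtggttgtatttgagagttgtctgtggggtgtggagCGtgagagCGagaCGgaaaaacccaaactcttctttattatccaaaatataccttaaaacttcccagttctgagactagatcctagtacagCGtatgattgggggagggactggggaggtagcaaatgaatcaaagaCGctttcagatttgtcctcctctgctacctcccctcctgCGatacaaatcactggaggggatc

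The motif searched was CG, which reads the same on both strands and occurs in 94.6% of the 32851 RefSeq promoter windows, with a median of 7 per window. The Trh window held 28, a number that 14.2% of all promoters reach, and those of Mest held 8 and 17. Lower still was Bcat1 with 6, and BB283400 held 13. Promoter windows under any chromosome 6 peak of this set held a median of 20 (n = 653), against 15 for the 6 windows under a peak called against each deletion. Those 6 count the next start of Mest both at 30737800 and at 30737803, nearly the same sequence with 17 in each.

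Most of the chromosome did not differ detectably. The median log2 fold change of the 3436 tested peaks was 0.03 against the Wnt6 deletion and 0.01 against the Hmx1 deletion, and 97.2% and 96.5% of peaks lay within a log2 fold change of 1 of no difference, beside 97.6% and 96.7% of all 74441 peaks tested. One peak of the set did not pass the filter on low counts. These peaks took 4.51%, 4.49% and 4.46% of the counts in the Hoxa deletion libraries, 4.34% and 4.33% in the Wnt6 deletion and 4.36% and 4.37% in the Hmx1 deletion. The groups did not overlap, and the exact two-sided permutation p was 0.0571, the smallest that 3 against 4 libraries allow. With chromosome 8 left out of the total, the means were 4.75% ± 0.0257 (SD, n = 3) and 4.73% ± 0.0222 (SD, n = 4), and the groups overlapped (exact permutation p = 0.229).

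Calls required a log2 fold change beyond 1 in either direction together with an adjusted p below 0.05 (Benjamini-Hochberg) from edgeR's quasi-likelihood test of the whole table. Against the Wnt6 deletion 62 peaks were called, or 1.80% of the set beside 1.23% of all peaks. In the Hoxa deletion 47 were higher (1.37% beside 0.462%) and 15 lower (0.437% beside 0.772%). Against the Hmx1 deletion there were 81 (2.36% beside 1.79%), of which 61 were higher (1.78% beside 0.909%) and 20 lower (0.582% beside 0.885%). Called in the same direction against each of the other deletions were 37 peaks (1.08% beside 0.647%). Of these, 24 were higher (0.698% beside 0.214% of all peaks) and 13 were lower (0.378% beside 0.434%). The 323 lower calls among all peaks include 234 on chromosome 8, and that background also covers the 46 peaks of the deleted Hoxa stretch. Backgrounds of lower calls against the Wnt6 or the Hmx1 deletion cover the same peaks. A share below these backgrounds thus does not show that lower calls are rarer here than on other chromosomes. DESeq2 called 22 against each, 20 of them among the 37. Leaving out replicate 2 of the Wnt6 or of the Hmx1 deletion, the deepest of each, gave 20 and 22 calls, of which 17 and 19 were among the 37. In all 37 the Hoxa deletion libraries lay beyond every other library, which a call against each deletion itself favours. Called or not, 12.2% of the tested peaks of the set had them above all others, beside 9.09% of all peaks. Below all others they lay at 7.28%, beside 9.19%. The latter share also covers chromosome 8 and the deleted Hoxa stretch and is not given without them, so it shows no deficit of lower peaks here. Both comparisons use the same Hoxa deletion libraries, and neither count is independent of the other. Between the Wnt6 and Hmx1 deletions, 0 of 3436 peaks were called by edgeR or by DESeq2 (0.0887% of all peaks by edgeR), while 178 had an unadjusted edgeR p under the same threshold. That background of 0.0887% also covers the 34 and 11 peaks of the deleted Wnt6 and Hmx1 stretches.

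Without chromosome 8 in the fit, 29 peaks were called against each deletion (0.844% of the set beside 0.298% of all peaks of that fit). Of these, 19 were higher (0.553% beside 0.171%) and 10 lower (0.291% beside 0.126%). The backgrounds of this fit still cover the 46 peaks of the deleted Hoxa stretch. All 29 were among the 37. Against the Wnt6 deletion 37 peaks were then higher (1.08% beside 0.391%) and 14 lower (0.407% beside 0.179%). Against the Hmx1 deletion 47 were higher (1.37% beside 0.741%) and 16 lower (0.466% beside 0.264%). Ranked by the share of peaks called against each deletion, this set ranked 3 of 21 regions, after chromosome 8 (4.19%, all lower) and the chromosome 6 peaks within 10 Mb of Hoxa (2.02%), and the chromosomes after it reached at most 0.428%. Whether these shares differ beyond what clones differ by was not tested.

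**Figure D1:**
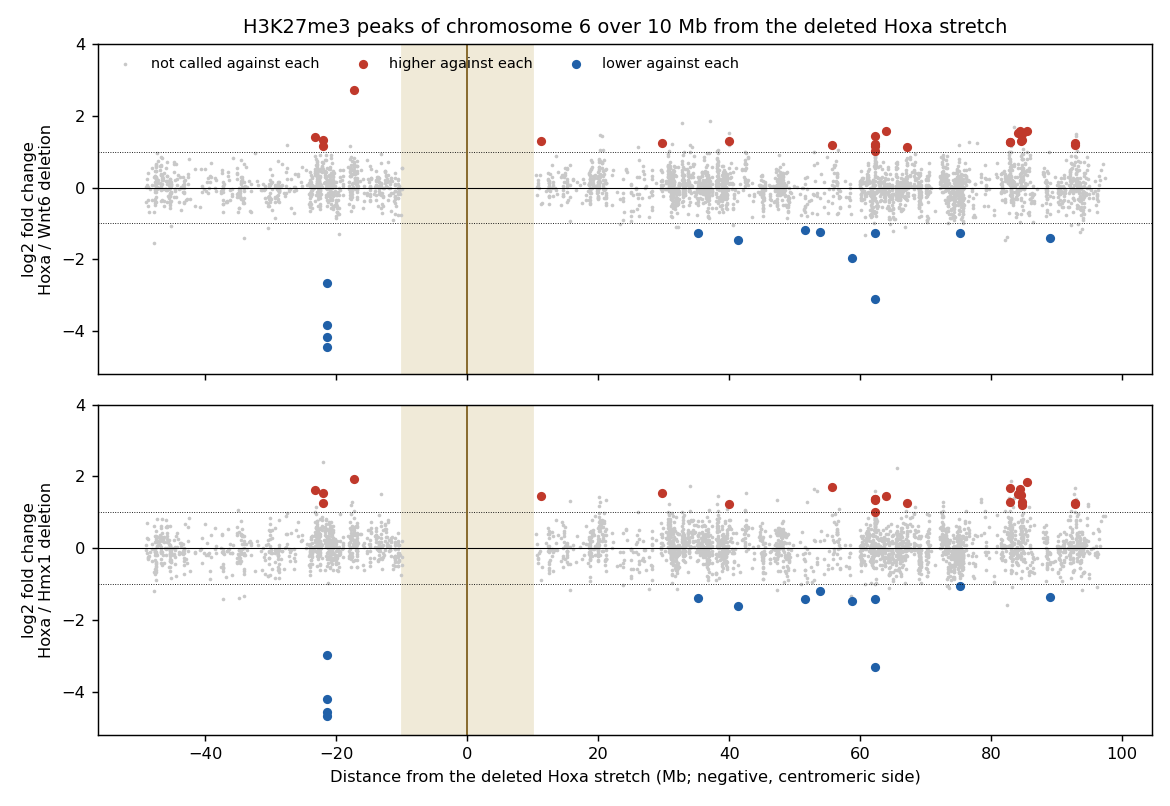
Log2 fold change of each tested peak (grey) against its distance in Mb from the deleted Hoxa stretch (line at 0; shaded, the 10 Mb on each side that the set leaves out), for the Hoxa over the Wnt6 deletion (top) and over the Hmx1 deletion (bottom). The 24 peaks higher (red) and 13 lower (blue) against each deletion are spread over most of the chromosome, dotted lines mark the fold threshold, and the lowest points, below -4, are at Mest.

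Called peaks were spread unevenly. The 10 Mb windows with most of them were 110 to 120 Mb (6 higher and 3 lower of 454 peaks), 130 to 140 Mb (8 higher, 0 lower of 240) and 30 to 40 Mb (3 higher and 4 lower of 314). Neighbouring peaks of a single locus count separately here. At 110 to 120 Mb, 6 of the calls lay in the 157.7 kb from Hrh1 to Atg7 described below, and the 4 lower ones at 30 to 40 Mb were all at Mest. None was called against each in the windows from 0 to 20 Mb, 40 to 50 Mb or 70 to 80 Mb. The 130 to 140 Mb window also had the highest medians, with log2 fold changes of 0.14 and 0.15, and 52.9% of its peaks lay above 0 in both comparisons. On the other autosomes without chromosome 8, 1 of 221 windows of this size held 8 or more such calls, and 3 had both medians at or above those of the 130 to 140 Mb window. By distance from Hoxa, calls against each made up 8 of 570 peaks at 10 to 30 Mb on the centromeric side, 0 of 298 peaks beyond 30 Mb there, 0.714% and 0.764% at 10 to 30 and 30 to 60 Mb on the telomeric side, and 1.46% of the 1372 peaks beyond 60 Mb. The share thus did not fall steadily with distance, though it too counts the peaks at Mest (10 to 30 Mb, centromeric) and from Hrh1 to Atg7 (beyond 60 Mb) separately.

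Some called peaks had another within 100 kb. Of the 106 peaks called against either deletion (84 with log2 fold changes above 0 in both comparisons and 22 below), 66 belonged to 19 runs of at least 2 called peaks less than 100 kb apart, and 40 stood alone. The spacing of calls was not compared with that on other chromosomes. Every run starts and ends at a called peak, so sums and fold changes over a run, here and below, only describe values that chose it. The longest run, with 20 called peaks or 18.9% of the total, lay past Hrh1, which encodes the histamine H1 receptor, on the way to Atg7, which encodes the E1-like enzyme of autophagy.

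That region was singled out after its values were seen, and its values are a description. It held 50 peaks, of which the first 2 overlapped Hrh1 and the others no gene, over 157.7 kb (chromosome 6, 114479612 to 114637285). Summed over them, the level was 721, 680 and 692 CPM in the Hoxa deletion, 426 and 414 CPM in the Wnt6 deletion, and 457 and 452 CPM in the Hmx1 deletion. All 3 Hoxa deletion libraries were thus above the other 4, and their mean of 698 ± 21.1 CPM (SD, n = 3) was 1.66-fold and 1.53-fold that of the Wnt6 and Hmx1 deletions. Log2 fold changes were above 0 in both comparisons for 44 peaks, with medians of 0.90 and 0.72, and below 0 in both for the other 6. The Wnt6 and Hmx1 deletions differed by a median of -0.14 there, with 0 of 50 peaks at an adjusted p under 0.05 in edgeR's test, against 40 and 37 peaks for the Hoxa deletion.

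Among the peaks of this region, 6 were called against each deletion, 4 higher and 2 lower. The highest of the 4 was at 114576750, 65.3 kb from Atg7, with 26.7, 22.4 and 25.3 CPM in the Hoxa deletion, 13.8 and 11.2 CPM in the Wnt6 deletion and 12.5 and 12.2 CPM in the Hmx1 deletion. Its log2 fold changes were 1.01 ± 0.14 (SE) and 1.0 ± 0.15 (SE), just past the fold threshold, and 9 of 17 alternative settings lost the call, among them those without replicate 1 or 3 of the Hoxa deletion or replicate 2 of the Wnt6 or Hmx1 deletion. The opposite was seen nearby at 114565097, where the Hoxa deletion libraries had 13.0, 12.2 and 12.1 CPM against 31.9, 28.7, 36.0 and 30.9 CPM in the others. This peak fell by 1.28 and 1.41 in log2 terms (adjusted p of 2.93e-11 and 1.98e-12 by edgeR), amid neighbours that were higher. A smaller peak at 114599725 held 0, 6 and 4 counts in the Hoxa deletion libraries and 20, 58, 14 and 46 counts in the others, with log2 fold changes of -3.10 ± 0.57 (SE) and -3.32 ± 0.58 (SE). The nearest peaks outside the region lay 64.6 and 60.4 kb away, and 10 neighbouring peaks had medians of -0.25 and -0.13 with none called. The highest peak at Hrh1 itself, at 114397294, had 76.6, 76.9 and 70.4 CPM against 77.4, 72.9, 73.2 and 76.4 CPM. Without the region, 31 of 3386 peaks (0.916%) were called against each deletion.

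**Figure D2:**
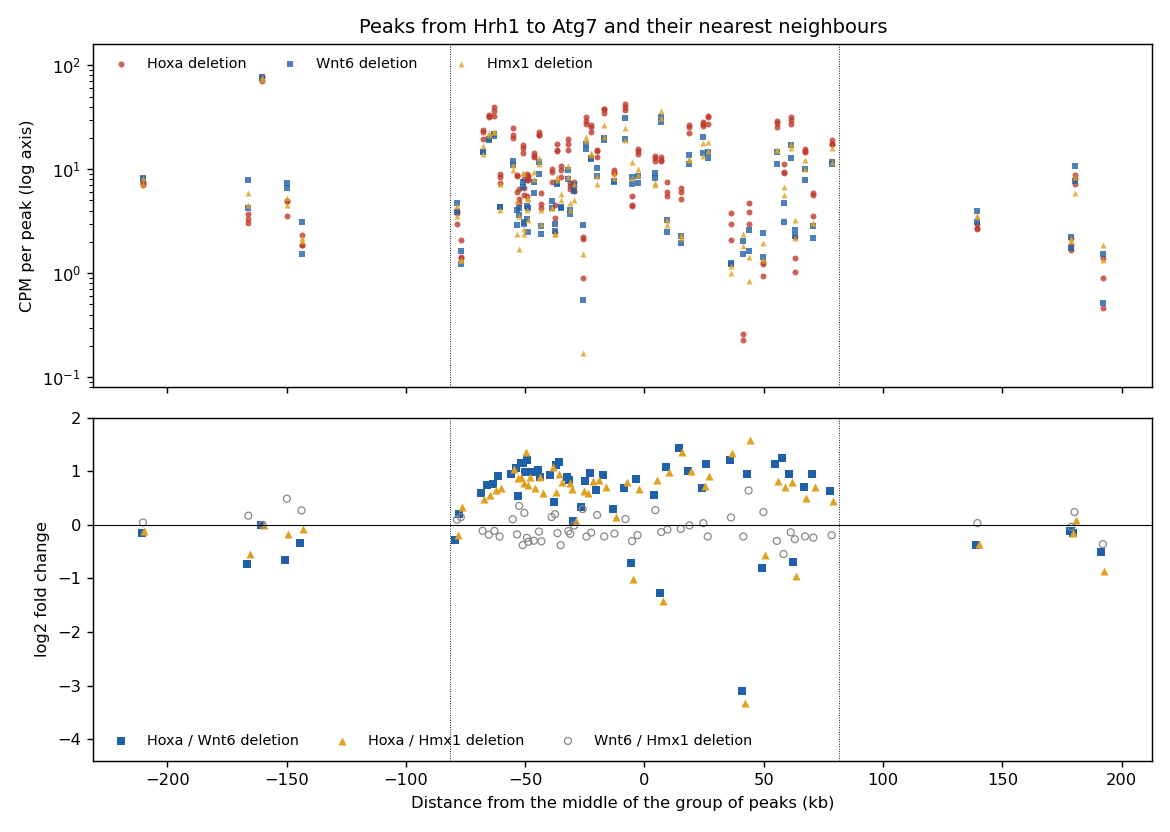
Peaks from Hrh1 to Atg7 (between the dotted lines) and their nearest neighbours, by distance in kb from the middle of the group. Top, CPM of each peak in each of the 7 libraries on a log axis (1 value of 0 counts is not drawn). Bottom, log2 fold changes, which are above 0 in both comparisons for 44 of 50 peaks, while the open circles (Wnt6 over Hmx1 deletion) centre near -0.14.

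The 3 most negative fold changes among the 37 were at Mest, an imprinted gene read from the paternal copy. All 4 peaks of its run, within 5.75 kb and overlapping the gene, were lower against each deletion. The highest, at 30732605 over the first start shown above, had 4.11, 4.78 and 4.06 CPM in the Hoxa deletion, 27.1 and 28.4 CPM in the Wnt6 deletion and 34.8 and 34.1 CPM in the Hmx1 deletion. It fell by 2.66 ± 0.15 (SE) and 2.97 ± 0.15 (SE) on the log2 scale, with edgeR adjusted p of 1.35e-22 and 1.26e-24. At each of the 4 peaks the Hoxa deletion libraries were the 3 lowest. The peak at 30736885 held 4, 13 and 0 counts in the Hoxa deletion libraries and 78, 266, 51 and 222 counts in the others, and fell by 4.44 and 4.67. At the next start, the peak at 30737972 held 3, 6 and 6 counts against 54, 209, 52 and 164 counts. Summed over the 4 peaks the level was 5.99, 5.85 and 4.57 CPM against 46.3, 46.9, 58.3 and 57.8 CPM, which leaves no overlap between the Hoxa deletion and the rest. All 17 alternative settings kept the call of the highest peak.

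Lower peaks were also called at other genes. Next to Arhgap25, which encodes a GTPase-activating protein, the peak at 87457061 (0.586 kb from the gene) had 3.53, 5.39 and 6.64 CPM in the Hoxa deletion against 11.7, 13.8, 15.4 and 13.1 CPM in the others. Its log2 fold changes were -1.27 ± 0.18 (SE) and -1.38 ± 0.19 (SE), with edgeR adjusted p of 8.78e-07 and 2.14e-07. Within Magi1, a scaffold gene of cell junctions, the peak at 93678230 had 2.35, 3.40 and 2.64 CPM against 8.54, 7.76, 9.30 and 8.70 CPM, and log2 fold changes of -1.47 and -1.61. These 2 calls were kept under all 17 alternative settings. Within Cntn4, which encodes the neuronal adhesion molecule contactin 4, the peak at 106163170 had 2.35, 3.13 and 1.42 CPM against 5.35, 5.88, 4.56 and 5.98 CPM, and 5 settings lost it, among them those without replicate 2 of the Wnt6 or the Hmx1 deletion or replicate 3 of the Hoxa deletion. The remaining named ones were weaker: peaks near Gm25656 and Gm28523 and within Parp11 and Grm7 had adjusted p between 0.00245 and 0.0493, and were lost under 8, 11, 12 and 13 of the 17 settings.

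Higher peaks were led by Wdr91 and Trh. Within Wdr91, which encodes an endosomal protein, the peak at 34900922 had 7.76, 7.49 and 6.06 CPM in the Hoxa deletion, 0.823 and 1.18 CPM in the Wnt6 deletion and 2.37 and 1.65 CPM in the Hmx1 deletion. Its log2 fold changes of 2.71 ± 0.29 (SE) and 1.93 ± 0.29 (SE) were the largest positive ones among the 24 (edgeR adjusted p = 1.31e-10 and 1.46e-06), and all 17 settings kept the call. Over the CG-rich start of Trh, the precursor of thyrotropin-releasing hormone, the peak at 92243658 had 23.5, 23.0 and 23.3 CPM against 8.64, 9.82, 12.3 and 8.70 CPM. The log2 fold changes were 1.31 ± 0.15 (SE) and 1.23 ± 0.16 (SE), with adjusted p of 3.46e-09 and 8.89e-08 by edgeR, and 1 setting, without replicate 2 of the Hmx1 deletion, lost it. At BB283400, a gene on the centromeric side of Mest, the peak over the start had 16.2, 15.5 and 16.0 CPM against 7.62, 5.67, 9.63 and 5.20 CPM. Its log2 fold changes were 1.32 and 1.26, opposite in sign to those at Mest, and a peak in neighbouring Gm31221 differed by 1.16 and 1.54. Without replicate 2 of the Hmx1 deletion, or after downsampling, the BB283400 call was lost, as was that in Gm31221 without replicate 2 of the Wnt6 deletion. In Gm8203, which lies within Tmcc1, the peak at 116173669 had 4.00, 5.81 and 5.03 CPM against 1.23, 1.93, 2.20 and 1.69 CPM, and lost its call without replicate 2 of the Hmx1 deletion.

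Towards the telomeric end, runs of higher peaks lay at several genes. At Gprc5a, which encodes an orphan G protein-coupled receptor induced by retinoic acid, all 3 peaks of a 14.2 kb run were called. Of these, 2 were called against each deletion and that at 135065093 against the Hmx1 deletion alone. The sum of the run was 27.6, 30.5 and 29.1 CPM in the Hoxa deletion, 14.7 and 14.8 CPM in the Wnt6 deletion and 11.3 and 11.8 CPM in the Hmx1 deletion. The peak at 135078544 led it, with log2 fold changes of 1.27 ± 0.20 (SE) and 1.29 ± 0.22 (SE), and lost its call after downsampling to the smallest library. Across Bcat1, a cytosolic branched-chain aminotransferase gene, and Lrmp, all 5 peaks within 95.5 kb were called against at least 1 deletion. Together they had 27.5, 26.8 and 31.2 CPM against 12.1, 14.3, 10.8 and 14.2 CPM, a 2.16-fold and 2.28-fold difference of means among peaks chosen by their calls. Over a Bcat1 start shown above, the peak at 145075440 had 6.00, 6.69 and 8.51 CPM against 3.09, 2.95, 2.70 and 3.11 CPM, a call likewise lost after downsampling. Every one of these peaks was higher in all Hoxa deletion libraries than in any other. Between Gprc5a and Bcat1 lay higher peaks within Tubb3-ps1, Plbd1 and Arhgdib and near Gm40411, Gm30055 and Strap. Near Gm40411, at 136793911, levels were 8.23, 7.99 and 5.22 CPM against 3.09, 2.82, 2.87 and 2.44 CPM, a call lost without replicate 2 of the Wnt6 deletion. Not every run held a peak called against each deletion. The 4 peaks of a run in Rerg, which encodes a Ras-like protein, summed to 12.7, 12.7 and 13.3 CPM against 6.18, 6.61, 7.44 and 6.30 CPM, with 0 called against each. In Klhl42 the peak at 147090401 had 49.0, 51.8 and 52.4 CPM, 33.1 and 33.0 CPM in the Wnt6 deletion and 21.0 and 22.6 CPM in the Hmx1 deletion, and was called against the latter alone.

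**Figure D3:**
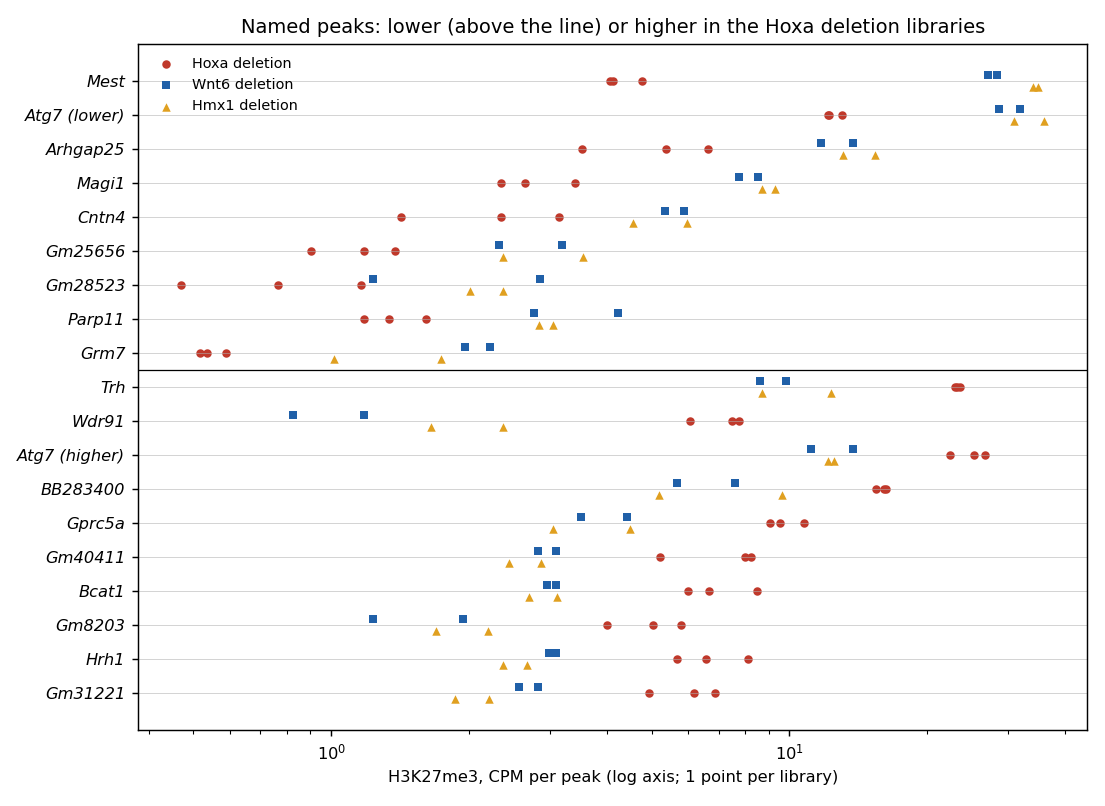
Level in each library (CPM, log axis) of the 19 peaks named by rule, 9 lower (above the line) and 10 higher in the Hoxa deletion. The rule took only peaks whose 3 Hoxa deletion points (red circles) lie beyond all Wnt6 (blue squares) and Hmx1 (yellow triangles) deletion points. The margin is widest at Mest and narrowest at Gm28523. Atg7, Hrh1 and some others name the nearest gene, not one overlapped.

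A gene's kind was read from lists of genes, with a peak counted when it overlapped the gene or lay within 2.5 kb. At 24 developmental transcription factor genes, 0 of 127 peaks were called against each deletion, beside 1.08% of the set and 0.647% of all peaks. A single weak peak in Foxp2, which encodes a forkhead factor, was lower against the Hmx1 deletion alone (log2 fold changes -0.69 and -1.42). Taking the highest peak of each gene, 20 of 24 lay within 0.3 of 0 on the log2 scale in both comparisons. At Emx1, a homeobox gene of the forebrain, the peak had 300, 271 and 274 CPM in the Hoxa deletion and 283, 245, 270 and 285 CPM in the others. Dlx5, of limb and craniofacial development, had 121, 111 and 111 CPM against 115, 100, 112 and 114 CPM. Levels of the groups overlapped at both. Vax2, an eye homeobox gene that loops to Hoxa in the study, had 191, 170 and 175 CPM against 179, 159, 181 and 188 CPM at its highest peak, with log2 fold changes of 0.08 and -0.05, and none of the 7 peaks overlapping it was called.

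Klf15, Foxj2 and Tead4 were the 3 of these genes whose highest peak passed an adjusted p of 0.05 in both comparisons, below the fold threshold. For Klf15, which encodes a Krüppel-like factor of metabolism, it had 177, 162 and 156 CPM in the Hoxa deletion against 123, 105, 109 and 114 CPM, with log2 fold changes of 0.54 and 0.56 (edgeR adjusted p = 3.88e-05 and 1.61e-05). All 13 peaks across the 103.1 kb from near Cfap100 to near Aldh1l1, with Klf15 between, lay above 0 in both comparisons. Their sum was 239, 221 and 216 CPM against 156, 143, 144 and 151 CPM, 1.51-fold and 1.53-fold. The stretch is a run bounded by called peaks, and its values are a description. At Tead4, which encodes a TEAD factor of the Hippo pathway, levels were 43.3, 41.4 and 42.0 CPM against 31.8, 33.5, 26.5 and 25.5 CPM.

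Among 11 imprinted genes, the 4 called of 26 peaks were the Mest peaks. Copg2, which neighbours Mest, had 12.1, 13.1 and 12.8 CPM at its highest peak against 11.4, 11.8, 14.0 and 12.0 CPM, and that over Peg10 and Sgce had 38.2, 31.8 and 38.7 CPM against 35.4, 29.7, 37.5 and 33.2 CPM. Of 146 peaks at 29 genes for signalling ligands and receptors, 2 were higher against each deletion (1.37%), at Trh and at Wnt5b, a Wnt ligand gene that the peak shares with Gm40397. The Wnt5b peak, at 119470150, had 3.53, 2.87 and 3.54 CPM against 1.23, 1.62, 0.507 and 1.69 CPM, whereas the highest peak of that gene had 185, 164 and 168 CPM against 177, 171, 175 and 185 CPM. Ion channel and synaptic genes, 35 in number, held 272 peaks, of which 3 were called against each deletion (1.10%), among them 2 lower ones within Cntn4 and Grm7. Their highest peaks, 27 of 34 of which lay within 0.3 of 0 in both comparisons, were not called. No peak was called against each deletion at 2 pluripotency genes (3 peaks), 8 zinc finger genes (27), immune receptor clusters (26) or chemosensory receptor clusters (5). Of the immune and chemosensory receptor genes, 36 of 280 and 4 of 82 had a peak. Away from all lists, 21 higher and 7 lower of 2806 peaks were called (0.998%).

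**Figure D4:**
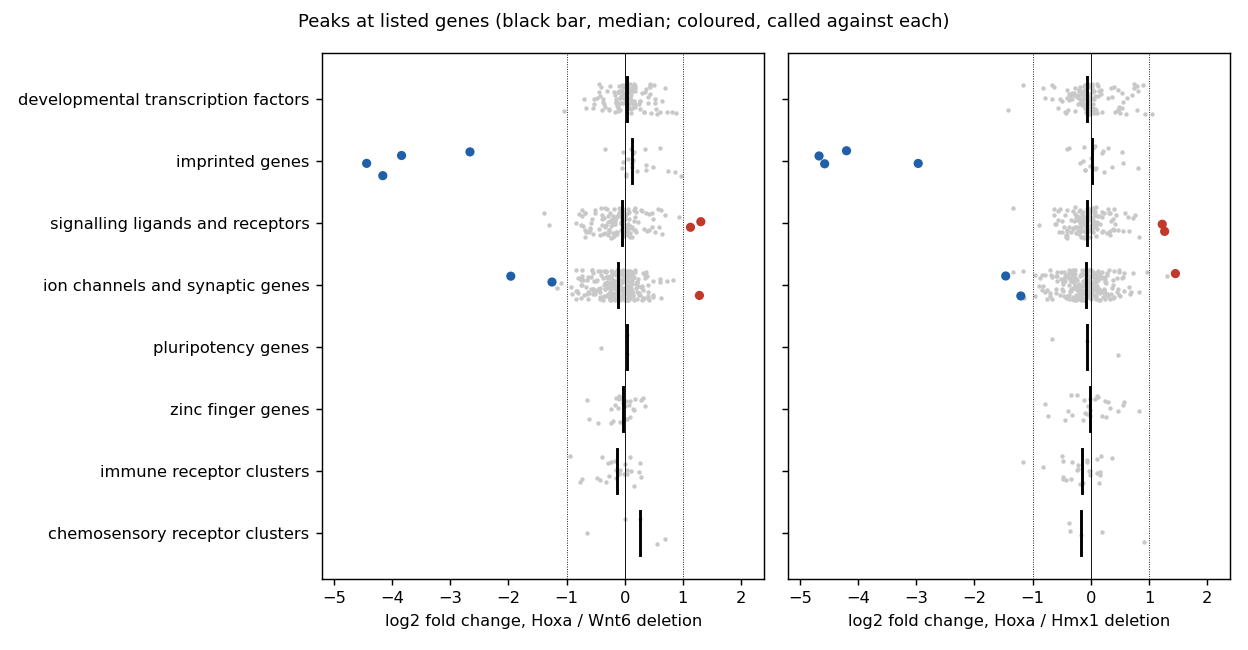
Log2 fold change of every peak within 2.5 kb of a listed gene, by list, for the Hoxa over the Wnt6 deletion (left) and over the Hmx1 deletion (right), with black bars for medians and colour for peaks called against each deletion. The 4 lowest points in each panel are at Mest, and the row of developmental transcription factors holds 0 coloured points.

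Levels of called peaks were compared per length. Those higher against each had a median of 3.79 CPM per kb in the other 4 libraries, those lower 8.44, and those called in neither comparison 7.36. The same 4 libraries enter the fold change, so a higher call favours a low level there and a lower call a high level. These medians therefore cannot show whether higher and lower calls lie at peaks of different strength. By CPM over all libraries, the 859 peaks of lowest level held 6 higher and 3 lower calls against each. Their share was 1.05%, beside 0.539% of all peaks at such levels. The next 859 in level held 6 and 2 (0.931% beside 0.937%). The 859 above those held 9 and 5 (1.63% beside 0.612%), and the 859 of highest level 3 and 3. The share called therefore did not fall steadily as the level rose. The strongest called against each had 41.5 CPM per kb in the other 4 libraries. Of the 859 peaks of highest level, taken by CPM over all libraries, 6 were called against each (0.698%, beside 0.521% of all peaks at such levels). A weak peak needs a smaller absolute change to pass a fold threshold, and its values spread more: the SD of log2 fold changes was 0.53 and 0.57 among the 859 peaks of lowest CPM and 0.31 and 0.34 among the 859 of highest. A promoter lay under 3 of 24 higher and 2 of 13 lower peaks, beside 15.3% of those called in neither. Genes were overlapped by 14 of the 24 and 8 of the 13, beside 64.1%, and median widths were 496, 502 and 468 bp.

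**Figure D5:**
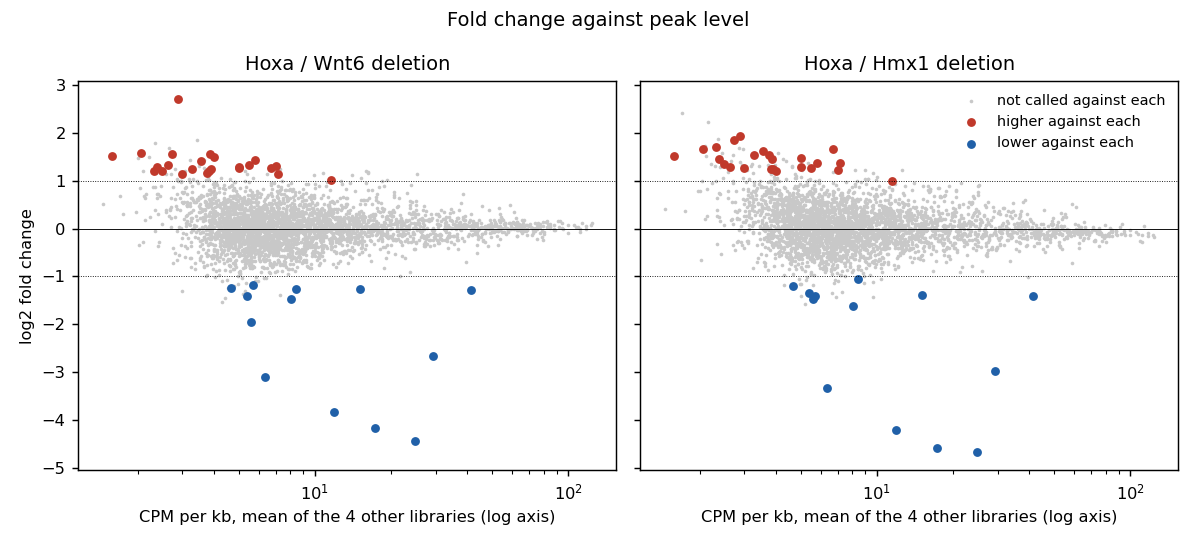
Log2 fold change of each tested peak against its level in CPM per kb (mean of the 4 Wnt6 and Hmx1 deletion libraries, log axis), for the Hoxa over the Wnt6 deletion (left) and over the Hmx1 deletion (right). Peaks called against each deletion (red higher, blue lower) lie at 41.5 CPM per kb or less, and the spread of uncalled peaks (grey) narrows as the level rises. The libraries of the level axis also enter the fold change, which favours low levels for red points and high levels for blue points.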

How the data were processed

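Cut&Tag libraries of H3K27me3 were made from mESCs with a Hoxa, Wnt6 or Hmx1 deletion and amplified by PCR, per the labels. The deposited table holds raw counts over 74458 peaks for 7 H3K27me3 libraries. The 7 IgG libraries were not analysed here, so no background was subtracted. The submitters' processing notes name Trimmomatic, Bowtie2, SAMtools, Picard, MACS2 and deepTools with the build mm10, but how the shared peak list was made, whether duplicates were removed and whether reads or fragments were counted is not given in the sources used here. Peaks that are strong in the libraries used for peak calling are then favoured. Totals were 6016500 to 36563541 counts per library, and precision is limited by counting in the weakest peaks.

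Peaks were filtered with filterByExpr, which removed 17, scaled by TMM factors and compared in 1 fit over 3 genotypes with edgeR 4.0.16 (glmQLFit, glmQLFTest) in R 4.3.3. The study used DESeq2 with the same thresholds, for each deletion (3 replicates) relative to the others. DESeq2 1.42.0 was therefore an alternative, though here it compared the deletions in pairs, on 3, 2 and 2 libraries. The pooled comparison was run in edgeR only, so neither repeats the study's test. The Hoxa stretch was the longest run of peaks under 10% of the others' level. Genes came from a RefSeq table of GRCm38.p6, without strand or exons, so that exonic and intronic peaks are not distinguished. Positions are peak starts as deposited, with the convention of the start not stated. Named peaks were the first 10 genes in each direction by the larger adjusted p among peaks called against each deletion and separated from all other libraries (9 genes were lower), plus the peaks at Vax2 and at listed genes. The members and lists were chosen with earlier results of these data known. On simulated counts over 74434 peaks, edgeR recovered 93% and 98% of peaks changed by 1.5 and 2 on the log2 scale between Hoxa and Wnt6 libraries, and 89% and 97% between Hoxa and Hmx1 libraries, with at most 3 false calls. The simulation gave all peaks the same dispersion of 0.02, changed only peaks with a mean count of at least 20, and had no shift of a whole chromosome. Smaller changes, nearer the fold threshold, were not simulated, so these rates do not cover them. Alternatives were DESeq2, RLE factors, library totals, no filter or one on a mean count of 20, a replicate block, the compared groups only, downsampling to the smallest library, chromosome medians removed, a fit without chromosome 8, each library left out, no fold minimum and both other deletions pooled.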

Additional observations from a re-analysis of the deposited data

How the results depend on the processing

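No called result changed direction, while the medians of the set, close to 0, changed sign under some settings given here. Against each deletion, 22 peaks were called by DESeq2 and 22 after downsampling to the smallest library, 138 without a fold minimum and 67 with the Wnt6 and Hmx1 deletions pooled, against 37. DESeq2 called 37 and 42 peaks against the Wnt6 and Hmx1 deletions, and without a fold minimum edgeR called 195, 248 and 3 (the last between the Wnt6 and Hmx1 deletions). Leaving out single libraries gave 20 to 37 calls against each, 45 to 68 against the Wnt6 deletion, 55 to 78 against the Hmx1 deletion and 0 to 1 between the Wnt6 and Hmx1 deletions (1 without replicate 2 of the Hmx1 deletion). Of the 37 peaks, 20 were among the DESeq2 calls and 17 among those after downsampling. The median log2 fold change of the tested chromosome 6 peaks against the Wnt6 deletion was 0.0406 with DESeq2, 0.0177 with library totals, 0.0029 with chromosome medians removed, -0.00093 without chromosome 8 and 0.0169 to 0.0430 with single libraries left out. Against the Hmx1 deletion it was 0.0459 with library totals, -0.0097 with chromosome medians removed, -0.0168 without chromosome 8 and 8.63e-05 to 0.0285 with single libraries left out. Joining called peaks over up to 1 Mb gave 34 runs in place of 59. The median of the 50 peaks from Hrh1 to Atg7 ranged from 0.79 to 0.92 and from 0.68 to 0.77 over the settings, an analysis chosen after seeing the data. With the replicate number as a block, 61, 65 and 32 peaks were called against the Wnt6 deletion, the Hmx1 deletion and each, 27 of them among the 37. The numbers share no more than a name: deviations of same-numbered libraries correlated at 0.05, 0.02 and -0.01. The causes of these differences were not tested. Depth limits the weakest peaks. Those higher against each held a median of 10.5 counts in the smallest library, an Hmx1 deletion library in which their calls favour low counts. Leave-one-out fits of the Wnt6 or Hmx1 deletion assume that the lone library varies like the others.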
